A study of Mus musculus with 12 samples.

Results

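The response of 3T3-L1 cells to adipogenic induction was compared between a line labelled as overexpressing FHL2 and a control line. For each gene, the change from day 0 to day 2 in the control line was subtracted from the same change in the FHL2 line. This difference is called the interaction here, and it used all 12 of the 12 libraries of the series. 3T3-L1 is a mouse fibroblast line committed to the adipocyte lineage, labelled by the submitters as mesenchymal stem cells. The 4 groups held 3 libraries each. Control cells carried CTRL-GFP, and the other line carried FHL2-GFP as a model of FHL2 overexpression. Both were sampled after confluence at day 0, before any inducer, and at day 2, after insulin, dexamethasone and isobutylmethylxanthine in medium with fetal bovine serum. Both lines therefore received the same inducers, and GFP was part of both constructs. The labels do not say how the lines were made, how many clones they hold or whether the 3 libraries came from separate cultures. The p-values measure the spread between these libraries, pooled over the 4 groups, and this spread may be technical.

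The inducers raise cyclic AMP, activate the glucocorticoid receptor and stimulate insulin and IGF receptors. Post-confluent preadipocytes then switch on C/EBPβ and C/EBPδ, divide again, take down parts of their fibroblast matrix, and later express PPARγ, C/EBPα and the genes of the lipid droplet. Glucocorticoids also lower inflammatory and interferon-dependent gene expression. FHL2 is a scaffold protein of LIM domains with no DNA-binding domain of its own, and the title of the series names it together with NFAT5, a transcription factor of the tonicity response.

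Levels are given as CPM, counts scaled by the size and composition of each library, always in the order of replicates 1, 2 and 3. CPM values are not divided by transcript length, so they compare 1 gene between libraries and not different genes. Differences are log2 values, where 1 is a doubling. A positive interaction means a larger rise or a smaller fall in the FHL2 line. A gene passed a test at an edgeR quasi-likelihood adjusted p under 0.05 over the 14435 genes tested. A response is called blunted when it passed in control and had the same sign but a smaller size in the FHL2 line. It is called enhanced when it passed in the FHL2 line and had the same sign but a smaller size in control, and turned when both lines passed in opposite directions. Blunted and enhanced responses need to pass in 1 line only.

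Library totals ranged from 10047708 to 21872139 counts. The day 2 libraries had fewer genes with any count (12689 to 16131) than the day 0 libraries (17977 to 18811), and their biological coefficient of variation was 0.463 against 0.121. The tests used a spread per gene pooled over all 4 groups, with a coefficient of 0.283 over all libraries. Adjusted p at day 2 may therefore be too small, and those at day 0 too large. Control replicate 3 and FHL2 replicates 1 and 2 had the fewest genes at day 2, and values without these 3 libraries are given where they matter. Those fits keep 1 FHL2 library at day 2, which is assumed to vary like the others. The gene Fhl2 itself was at 58.9, 61.0 and 63.6 CPM in control and 67.4, 58.8 and 62.0 CPM in FHL2 cells at day 0. At day 2 it was at 13.9, 14.2 and 21.0 CPM in control and 18.7, 9.92 and 22.6 CPM in FHL2 cells. The Fhl2 counts of the 2 lines thus overlapped on both days, and its interaction was 0.04 (adjusted p 1.00). The counts at this gene do not show the labelled overexpression, and whether they include reads from the construct was not tested, so the directions below belong to the libraries labelled FHL2. Nfat5 fell in both lines (log2 -1.22 in control and -1.38 in FHL2 cells), with an interaction of -0.16 (adjusted p 0.967). At day 2 Nfat5 was at 317, 248 and 244 CPM in control and at 293, 200 and 118 CPM in FHL2 cells, so the groups overlapped. Without the 3 libraries the Nfat5 interaction was -1.05, which rests on the single FHL2 day 2 library at 118 CPM. Nfat5 did not pass in any fit with 1 library left out.

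Mesenchymal genes were strongly expressed throughout: the summed level of the 14 fibroblast and mesenchymal markers tested ran from 19691 to 26366 CPM over the 12 libraries. Of 13 markers of bone and cartilage 5 were tested, summing to 192 to 297 CPM, most of it Sox9 and Runx2, while Sp7, Bglap and Col2a1 had too few counts to be tested. Of 11 endothelial markers 7 were tested. They summed to 24.5, 22.9 and 22 CPM in control and to 16, 12.8 and 12.3 CPM in FHL2 cells at day 2, against 21.9 to 28 CPM over the day 0 libraries. Flt1, a receptor for VEGF, held most of this sum and passed as lower at day 2 (adjusted p 0.0388), at 19, 16.5 and 16.4 CPM in control and 9.99, 10.1 and 7.51 CPM in FHL2 cells. The part of these markers in the results was not tested. Of 12 markers of macrophages and blood 5 were tested, summing to 9.35 to 20.9 CPM over the 12 libraries. Ptprc, Adgre1, Itgam, Myod1, Myog, Epcam and Cdh1 had too few counts to be tested. In bulk RNA, fewer cells of a type and less RNA per cell cannot be told apart.

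Most of the induction response was shared. In control cells 3799 genes rose (26.3%) and 4447 fell (30.8%), and in FHL2 cells 3730 rose (25.8%) and 4357 fell (30.2%). Of these, 3264 rose in both lines and 3696 fell in both, which is 84.4% of the genes called in control and 86.1% of those called in FHL2. Across the 10454 genes whose average reached 5 CPM, the 2 responses had a Pearson r of 0.944 and a Spearman rho of 0.951 across genes, which are not independent replicates. These 2 responses share no library. Both moved with the GC content of the transcripts: over 10443 genes the Spearman rho was 0.689 in control and 0.670 in FHL2 cells. With these genes in 5 classes by GC content, the median response ran from -1.66 in control and -1.54 in FHL2 cells in the lowest class to 0.77 and 0.74 in the highest. The number of genes called in both lines, same direction, was 6960 in all and 4565 with an offset for GC content. The standard deviation of the FHL2 responses was 0.945 times that of the control responses. Before induction the lines differed in 3 genes that were higher (0.0208%) and 4 that were lower (0.0277%) in FHL2 cells. At day 2 the corresponding numbers were 104 (0.720%) and 195 (1.35%).

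**Figure D1:**
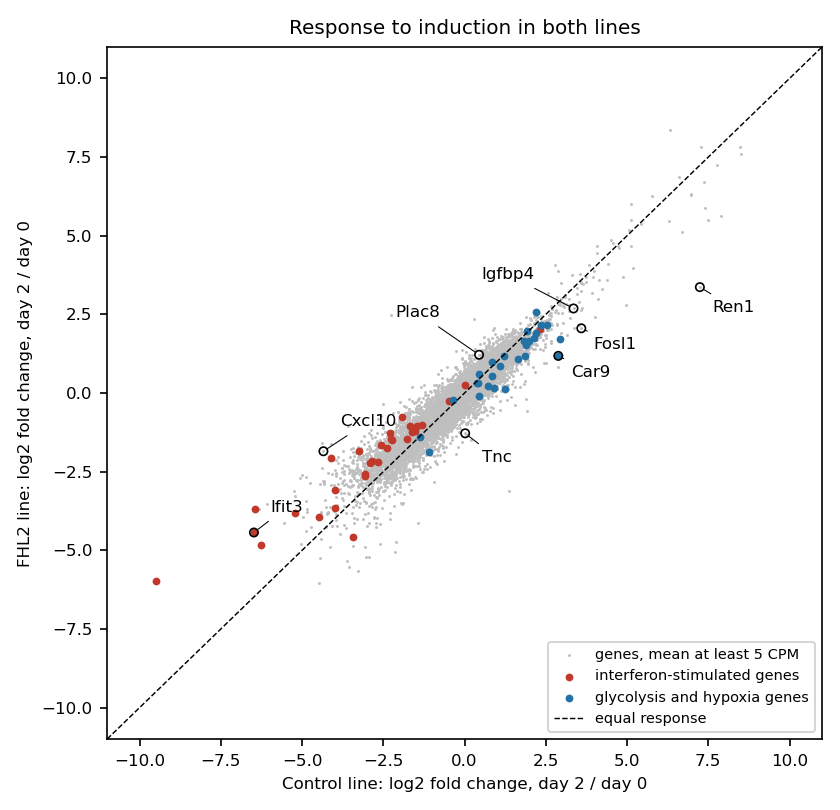
Each point is a gene that averaged 5 CPM or more and had a count in every group. The x axis is the log2 change from day 0 to day 2 in the control line and the y axis the same change in the FHL2 line, with the dashed line at equal response. Most genes lie near that line, and most interferon-stimulated genes (red) lie above it at negative values, where both lines fell and FHL2 cells fell less.

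The interaction itself passed the test at 1 gene. No gene passed in the higher direction (0%), and Tnc passed in the lower direction (0.00693%). At an unadjusted p under 0.05 there were 472 genes with a positive interaction (3.27%) and 524 with a negative one (3.63%). For the fit of all 12 libraries, these shares are the background for every list below. limma-voom called 0 genes higher and 1 lower, DESeq2 34 and 39, and edgeR without the 3 day 2 libraries 73 and 170. By shape, 442 of these 996 genes had a blunted response (188 rises and 254 falls in control) and 323 an enhanced one (120 rises and 203 falls). In 2 genes the response was turned. The other 229 met none of these definitions, and Tnc, the gene that passed, is among them, so no gene with a blunted, enhanced or turned response passed. The shares of these shapes over all genes tested are not given, so the larger number of blunted responses is not read as a result.

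Tnc encodes tenascin C, a hexameric glycoprotein of the provisional matrix that is made in wounds and developing connective tissue and binds fibronectin and integrins. In control cells Tnc was at 360, 341 and 361 CPM at day 0 and at 375, 408 and 292 CPM at day 2. In FHL2 cells it was at 417, 471 and 457 CPM at day 0 and at 206, 186 and 162 CPM at day 2. The FHL2 libraries were the highest of all before induction and the lowest of all after it, with no overlap between the lines on either day. Tnc did not change detectably in control (log2 0.02, adjusted p 0.904) and fell by 1.28 in FHL2 cells (adjusted p 7.45e-07). These 2 responses depend on the scaling, at -0.58 and -1.85 with an offset for GC content and -0.32 and -1.52 with one for GC content and length. The interaction was -1.30 (SE 0.168, adjusted p 0.0276). The day 0 difference did not pass (adjusted p 0.773) and the day 2 difference did (log2 -0.96, adjusted p 0.00165). Tnc passed under all 12 other scalings, filters, models and corrections, at adjusted p up to 0.0410, and reached -1.66 (adjusted p 0.000250) without the 3 libraries. With 1 library left out at a time, it passed without control day 2 replicate 2 or 3 or FHL2 day 2 replicate 1. Without any one of the other 9 libraries its adjusted p was between 0.062 and 0.171, with the log2 value always between -1.47 and -1.21.

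The RefSeq promoter table (build GRCm38.p6, 250 bases before to 50 after a transcript start) holds 2 overlapping windows for Tnc on the minus strand of chromosome 4. The window at chr4:64046887-64047186 is shown because Tnc is the only gene that passed and this window holds a TATA motif, which the other, at chr4:64046966-64047265, does not. Its capitals mark the TATA motif TATATAA, searched on both strands, which begins 29 bases before the start. The motif was found in 3.84% of the 27025 genes with a window, and in 1.64% of the tested genes with a window.
Tnc: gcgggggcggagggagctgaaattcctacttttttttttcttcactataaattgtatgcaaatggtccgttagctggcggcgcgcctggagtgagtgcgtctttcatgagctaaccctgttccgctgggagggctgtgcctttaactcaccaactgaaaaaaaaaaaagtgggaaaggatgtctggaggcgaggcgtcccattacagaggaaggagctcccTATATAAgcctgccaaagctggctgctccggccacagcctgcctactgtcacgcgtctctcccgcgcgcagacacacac

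The genes next in rank did not pass and are given as values. Fosl1, which encodes the AP-1 subunit FRA1, was at 22.6, 17.2 and 19.7 CPM in control at day 0 and at 202, 299 and 219 CPM at day 2. In FHL2 cells Fosl1 was at 13.0, 16.8 and 17.9 CPM at day 0 and at 55.8, 77.5 and 64.9 CPM at day 2. Both lines rose, by 3.59 in control and by 2.06 in FHL2 cells, and at day 2 the highest FHL2 library stayed below the lowest control library. The Fosl1 interaction was -1.53 (SE 0.252, adjusted p 0.0732), a blunted rise. Without the 3 libraries it was -1.66 (adjusted p 0.0177).

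Cbr2, a mitochondrial carbonyl reductase also known as adipocyte protein P27, was at 19.9, 23.6 and 20.3 CPM in control and at 18, 17.4 and 18 CPM in FHL2 cells before induction. At day 2 Cbr2 was at 167, 154 and 179 CPM in control and at 76.4, 59.9 and 64.0 CPM in FHL2 cells. The rise was 2.97 in control and 1.91 in FHL2 cells, and the interaction was -1.06 (SE 0.175, adjusted p 0.0732).

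Ren1 encodes renin, the protease that cuts angiotensinogen. It was at 0.181, 0.270 and 0.123 CPM in control and at 0.761, 0.342 and 0.902 CPM in FHL2 cells at day 0. At day 2 Ren1 was at 28.7, 39.5 and 22.5 CPM in control and at 5.13, 7.16 and 8.66 CPM in FHL2 cells. The control libraries were the lower ones before induction and the higher ones after it. The Ren1 interaction was -3.87 (SE 0.622, adjusted p 0.0732), and some mouse strains carry a near-identical second renin gene, so its counts are uncertain. Agt, which encodes angiotensinogen, the substrate of renin, was at 4.61, 4.80 and 7.11 CPM in control and 5.83, 5.67 and 10.7 CPM in FHL2 cells at day 0. At day 2 Agt was at 189, 175 and 236 CPM against 115, 119 and 114 CPM. Its interaction was -1.22 (SE 0.314, adjusted p 0.382).

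Igfbp4, a secreted protein that binds insulin-like growth factors, was at 209, 236 and 235 CPM in control and at 188, 192 and 191 CPM in FHL2 cells at day 0. At day 2 Igfbp4 was at 2070, 2617 and 2257 CPM in control and at 1156, 1245 and 1277 CPM in FHL2 cells, with an interaction of -0.66 (SE 0.125, adjusted p 0.15). Prex2, an exchange factor for RAC, fell in control from 17.1, 17.1 and 10.6 CPM to 0.563, 0.588 and 0.757 CPM. In FHL2 cells Prex2 fell from 15.6, 14.6 and 13.2 CPM to no count in any of the 3 libraries, where 3 counts over the group would be 0.0666 CPM. A fitted interaction for Prex2 rests on that 0 and is not given.

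In the other direction, Plac8, a small cysteine-rich protein with a role in brown fat, rose in both lines. Plac8 was at 228, 243 and 234 CPM in control and at 246, 237 and 223 CPM in FHL2 cells at day 0, where the groups overlapped. At day 2 it was at 310, 340 and 310 CPM in control and at 482, 541 and 618 CPM in FHL2 cells. The Plac8 interaction was 0.77 (SE 0.132, adjusted p 0.0736), an enhanced rise, and without the 3 libraries it was 0.89 (adjusted p 0.0154). Hp, the haemoglobin scavenger haptoglobin, had no count in FHL2 cells at day 0 and 0.407, 0.216 and 0.184 CPM in control. At day 2 Hp was at 25.5, 26.9 and 18.7 CPM in control and at 22.9, 47.8 and 42.6 CPM in FHL2 cells, so the groups overlapped after induction.

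**Figure D2:**
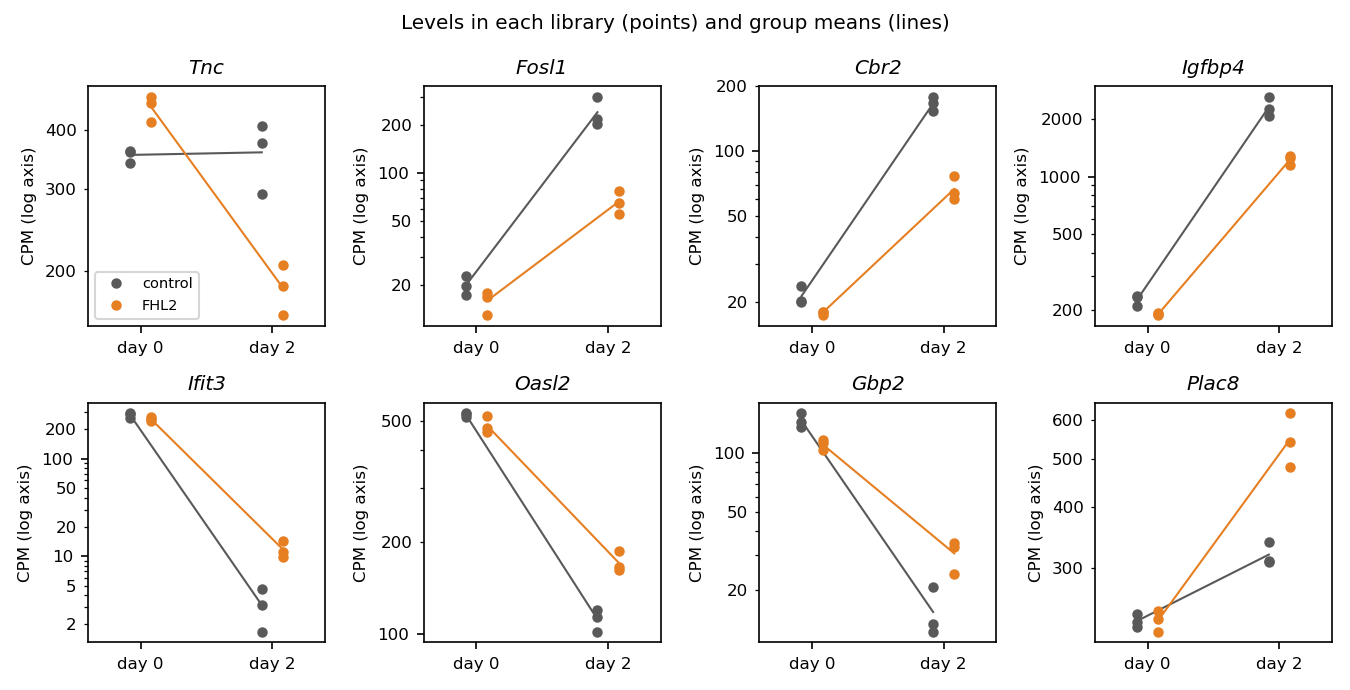
CPM (log axis) of 8 genes in each library at day 0 and day 2, with points for the 3 libraries of a group and lines joining the group means, control in grey and FHL2 in orange. The upper row holds genes with a negative interaction (Tnc -1.30) and the lower row genes with a positive one (Ifit3 2.05). In all 8 genes the lines do not overlap at day 2.

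The gene list with the highest median interaction was that of the interferon-stimulated genes. These genes encode antiviral effectors and their regulators, and their promoters are known to hold the interferon-stimulated response element. Of 34 listed genes 33 were tested, 30 of them fell in control and 30 fell in FHL2 cells. The median response was -2.85 in control and -1.85 in FHL2 cells, and the median interaction was 0.64 against 0.02 over all genes tested. None passed the interaction test. At an unadjusted p under 0.05, 17 of the 33 had a positive interaction and 0 a negative one, where the shares over all genes were 3.27% and 3.63%. Over the 24 alternative fits the list's median stayed between 0.53 and 0.76, with 12 to 22 such genes. Without the 3 libraries the median was 0.58.

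Summed over the 33 genes, control libraries went from 5045, 5007 and 4520 CPM at day 0 to 1268, 1245 and 1086 CPM at day 2. FHL2 libraries went from 4511, 4542 and 4103 CPM to 1589, 1576 and 1628 CPM. All 3 FHL2 sums at day 2 were above all 3 control sums. At day 0 the groups overlapped only in that the highest FHL2 sum exceeded the lowest control sum. The list's median difference between the lines was -0.13 at day 0, where no member passed, and 0.48 at day 2. At day 2, 6 of the 33 genes passed as higher in FHL2 cells, against 0.720% of all genes, and none passed as lower. Libraries of the 2 lines did not overlap at day 2 in 13 of the 33 genes, all with FHL2 higher, against 7.28% of all genes.

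Promoters of 2 interferon-stimulated genes are shown because both hold the response element in the window from RefSeq (GRCm38.p6, plus strand). Capitals mark matches to its core, GAAA followed by NN and another GAAA, on either strand. The matched letters read TTTC first because they lie on the minus strand. The Ifit3 window is at chr19:34583279-34583578, with 2 matches, and the Gbp2 window is at chr3:142620413-142620712, with 1 match.
Ifit3: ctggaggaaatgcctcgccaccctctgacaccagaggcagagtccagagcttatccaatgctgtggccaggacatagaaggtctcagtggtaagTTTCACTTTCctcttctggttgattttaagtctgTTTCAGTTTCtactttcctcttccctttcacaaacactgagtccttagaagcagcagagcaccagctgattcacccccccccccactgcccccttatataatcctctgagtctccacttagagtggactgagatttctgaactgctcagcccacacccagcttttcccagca
Gbp2: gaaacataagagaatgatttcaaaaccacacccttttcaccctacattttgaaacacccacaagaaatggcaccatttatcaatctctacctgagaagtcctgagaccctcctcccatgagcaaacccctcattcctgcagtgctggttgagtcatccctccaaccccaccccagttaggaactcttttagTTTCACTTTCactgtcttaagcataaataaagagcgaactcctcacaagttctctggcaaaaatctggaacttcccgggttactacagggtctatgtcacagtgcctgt
Of the 33 genes tested 23 had a window, and 14 of these held the core (60.9%), against 3.99% of the 27025 genes with a window. Among all tested genes with a window, 3.71% held it. Oasl2 and Xaf1 had windows without a match.

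Ifit3, which binds foreign RNA together with its relatives, had the smallest p of the genes with a positive interaction. Ifit3 was at 292, 289 and 263 CPM in control and at 254, 266 and 241 CPM in FHL2 cells at day 0. At day 2 it was at 1.69, 4.63 and 3.14 CPM in control and at 14.4, 11.1 and 9.75 CPM in FHL2 cells. Both lines fell (log2 -6.48 in control and -4.43 in FHL2 cells), and the remaining level was higher in every FHL2 library. The Ifit3 interaction was 2.05 (SE 0.303, adjusted p 0.0635), and it passed in 6 of the 12 other fits that left out no single library, for example at 1.75 (adjusted p 0.0259) without the 3 libraries. The copy next to it, Ifit3b, is nearly identical, so counts may be shared between the 2 genes. Ifit3b had an interaction of 1.44 (adjusted p 0.726), and its libraries overlapped at day 2.

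Oasl2, a member of the oligoadenylate synthetase family, was at 529, 528 and 516 CPM in control and at 474, 517 and 458 CPM in FHL2 cells at day 0. At day 2 Oasl2 was at 120, 113 and 102 CPM in control and at 186, 166 and 162 CPM in FHL2 cells. Its interaction was 0.73 (SE 0.124, adjusted p 0.0736). Gbp2, a guanylate-binding GTPase of host defence, was at 144, 160 and 137 CPM in control and at 113, 116 and 104 CPM in FHL2 cells at day 0. At day 2 Gbp2 was at 13.4, 20.6 and 12.2 CPM in control and at 24.2, 33.3 and 34.7 CPM in FHL2 cells, so the order of the lines was the reverse of that at day 0. The Gbp2 interaction was 1.39 (SE 0.253, adjusted p 0.122). Xaf1, a proapoptotic interferon target, was at 124, 126 and 127 CPM against 118, 116 and 112 CPM at day 0, and at 25.9, 21.3 and 15.7 CPM against 36.3, 37.0 and 36.3 CPM at day 2. The Xaf1 interaction was 0.92 (SE 0.198, adjusted p 0.251).

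The signalling genes of the pathway had smaller values. The interactions of Stat2 (0.29), Irf9 (0.23) and Irf7 (0.30), which encode transcription factors of the response, had adjusted p of 0.694, 0.807 and 0.724. Mx1, a dynamin-like GTPase that blocks influenza viruses, was at 3.59, 3.23 and 3.79 CPM in control and at 5.27, 8.29 and 7.75 CPM in FHL2 cells at day 2, with an interaction of 0.91 (adjusted p 0.461).

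Only 3 of the 33 genes had a negative value, and none of these was at an unadjusted p under 0.05. They were Ifi27 (-0.30, a gene that rose in both lines), Ifih1 (-1.16) and Oas3 (-1.26). Ifih1 and Oas3 each had at least 1 library without a count in both lines at day 2. Ifitm3, an antiviral membrane protein that is not on the list, rose in both lines, from 564, 617 and 636 to 1566, 1478 and 1537 CPM in control and from 647, 573 and 581 to 1984, 2168 and 2088 CPM in FHL2 cells. The Ifitm3 interaction was 0.46 (adjusted p 0.351).

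**Figure D3:**
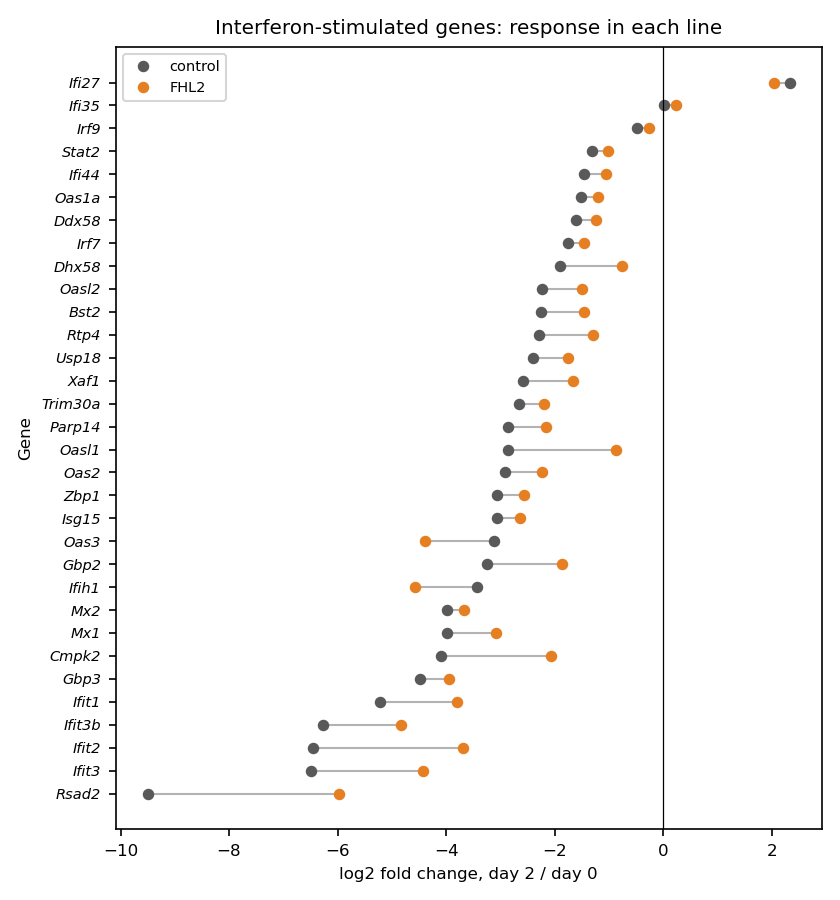
The log2 change from day 0 to day 2 of 32 interferon-stimulated genes, in control (grey) and in FHL2 cells (orange), ordered by the control response. In 29 of the 32 genes the orange point lies to the right of the grey one. The largest gaps, Rsad2 and Ifit2, rest on day 2 libraries with few or no counts.

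The genes of MHC class I antigen presentation, many of them interferon targets too, had a median interaction of 0.30 over 17 genes tested. At an unadjusted p under 0.05, 3 were higher and 0 lower, and 8 fell in control against 5 in FHL2 cells. B2m, the invariant light chain, was at 3442, 4043 and 3503 CPM in control and at 3979, 3521 and 3613 CPM in FHL2 cells at day 0. At day 2 B2m was at 2938, 3090 and 2577 CPM in control and at 3487, 3760 and 4191 CPM in FHL2 cells. B2m fell in control (log2 -0.35, adjusted p 0.00495) and not detectably in FHL2 cells (0.04, adjusted p 0.730), with an interaction of 0.39 (adjusted p 0.590). Psmb10, an immunoproteasome subunit, had an interaction of 0.61 (adjusted p 0.550). Cxcl10, an interferon-induced chemokine, was at 0.492, 1.32 and 0 CPM in control and at 3.81, 2.55 and 2.24 CPM in FHL2 cells at day 2, with an interaction of 2.49 (SE 0.828, adjusted p 0.590).

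Genes of glycolysis and the hypoxia response had negative values in 23 of 29 cases. HIF, the hypoxia-inducible factor, is a known activator of many of them, and 20 of the 29 tested rose in control and 18 in FHL2 cells. The median response was 1.23 in control and 1.08 in FHL2 cells, and the median interaction was -0.32, between -0.41 and -0.18 over the alternatives. None passed, and at an unadjusted p under 0.05 there were 0 with a positive and 9 with a negative interaction. At day 2, 16 of the 29 passed as lower in FHL2 cells, against 1.35% of all genes, and in 21 the libraries of the lines did not overlap with FHL2 lower, against 7.41%. The list's median difference between the lines was -0.25 already at day 0, where no member passed, and -0.58 at day 2. Summed over the list, control libraries went from 5056, 5791 and 5366 CPM to 17498, 20797 and 18572 CPM, and FHL2 libraries from 4477, 4472 and 4435 CPM to 11859, 13697 and 13371 CPM. The FHL2 sums were the lower ones on both days.

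Within this list, the oxygen sensor Egln1, a prolyl hydroxylase that marks HIF for destruction, had the smallest p. Egln1 was at 65.2, 75.7 and 62.2 CPM in control and at 66.6, 67.5 and 67.9 CPM in FHL2 cells at day 0. At day 2 it was at 127, 180 and 171 CPM in control and at 56.7, 73.5 and 89.5 CPM in FHL2 cells. Egln1 rose in control (1.23) and not detectably in FHL2 cells (0.12, adjusted p 0.550), with an interaction of -1.11 (SE 0.230, adjusted p 0.223). Car9, the hypoxia-induced carbonic anhydrase, rose to 24.3, 49.1 and 24.6 CPM in control and to 7.49, 10.8 and 10.4 CPM in FHL2 cells, from 3.68 to 5.13 CPM over all day 0 libraries. The Car9 interaction was -1.70 (SE 0.440, adjusted p 0.382).

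The glycolytic enzymes named here rose in both lines, and none passed the interaction test. Pgam1, the phosphoglycerate mutase, rose by 1.86 and 1.18 in control and FHL2 cells, with an interaction of -0.68 (adjusted p 0.536). Eno1, the enolase, was at 1528, 1794 and 1758 CPM in control and at 991, 1122 and 1152 CPM in FHL2 cells at day 2, with an interaction of -0.39 (adjusted p 0.550). Pfkp (-0.58), Gpi1 (-0.38), Pfkl (-0.39) and Aldoa (-0.34), which catalyse earlier steps, had adjusted p between 0.536 and 0.711. Pgk1 had an interaction of 0.05 (adjusted p 0.996), although its FHL2 libraries were lower on both days. Gapdh has many processed pseudogenes that can share its reads, and its control day 2 libraries were at 286, 103 and 82.7 CPM. Slc2a1, the basal glucose transporter, had an interaction of -0.32 (adjusted p 0.747).

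Matrix genes had mostly negative values. Of 41 matrix glycoproteins and matricellular proteins tested, 2 were higher and 10 lower at an unadjusted p under 0.05, Tnc among them, with a median of -0.22. Of 21 collagens 0 were higher and 8 lower, with a median of -0.15. At day 2, 5 of the glycoproteins and 7 of the collagens passed as lower in FHL2 cells, against 1.35% of all genes. Over the alternatives the median ran from -0.40 to -0.12 in the glycoproteins and from -0.45 to -0.08 in the collagens. The collagen value nearest 0 came with the offset for GC content and length. Without the 3 libraries the medians were -0.40 and -0.45, beside -0.04 over all genes, so the size of this shift moved with those libraries. Other lists moved too: the median of chromatin remodellers and histone lysine enzymes went from -0.09 to -0.56.

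Fbn1, which encodes the microfibril protein fibrillin 1, is 1 of the 2 genes with a turned response. Fbn1 was at 245, 200 and 223 CPM in control and at 184, 244 and 233 CPM in FHL2 cells at day 0, and at 292, 282 and 257 CPM against 176, 171 and 138 CPM at day 2. It rose in control (0.31, adjusted p 0.0427) and fell in FHL2 cells (-0.44, adjusted p 0.00749), and its interaction was -0.76 (SE 0.176, adjusted p 0.351). Fbln2, a fibulin of elastic fibres and basement membranes, did not change detectably in control (-0.15, adjusted p 0.15) and fell in FHL2 cells (-0.65), with an interaction of -0.50 (adjusted p 0.351). Dcn, the small proteoglycan decorin, went the other way with 0.44 (adjusted p 0.592), at 372, 463 and 352 CPM in control and 601, 661 and 663 CPM in FHL2 cells at day 2.

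Among collagens, the 2 main chains of basement membrane collagen rose in both lines and the fibrillar chain Col1a1 fell in both. Col4a1 was at 4035, 3412 and 3699 CPM in control and at 2853, 2496 and 2248 CPM in FHL2 cells at day 2, with an interaction of -0.33 (adjusted p 0.657), and its partner Col4a2 had -0.42 (adjusted p 0.629). Col15a1, a collagen of the basement membrane zone, rose in control to 18.8, 24.8 and 18.5 CPM and was at 7.70, 2.98 and 8.05 CPM in FHL2 cells, with an interaction of -1.47 (SE 0.498, adjusted p 0.592). Col6a3, a chain of the pericellular collagen, had an interaction of -0.60 (adjusted p 0.584). Among enzymes that process collagen, P3h2, a prolyl hydroxylase, had -1.31 (SE 0.250, adjusted p 0.152). P3h2 was at 5.97, 7.50 and 7.54 CPM in control and at 16.1, 12.4 and 12.5 CPM in FHL2 cells at day 0, and at 68.1, 78.0 and 72.3 CPM against 55.2, 69.0 and 47.6 CPM at day 2. The P3h2 groups overlapped at day 2, while every FHL2 library was higher than the control libraries at day 0. P4ha2, another prolyl hydroxylase, had -0.55 (adjusted p 0.351) with levels that differed at day 2 (adjusted p 0.000770).

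**Figure D4:**
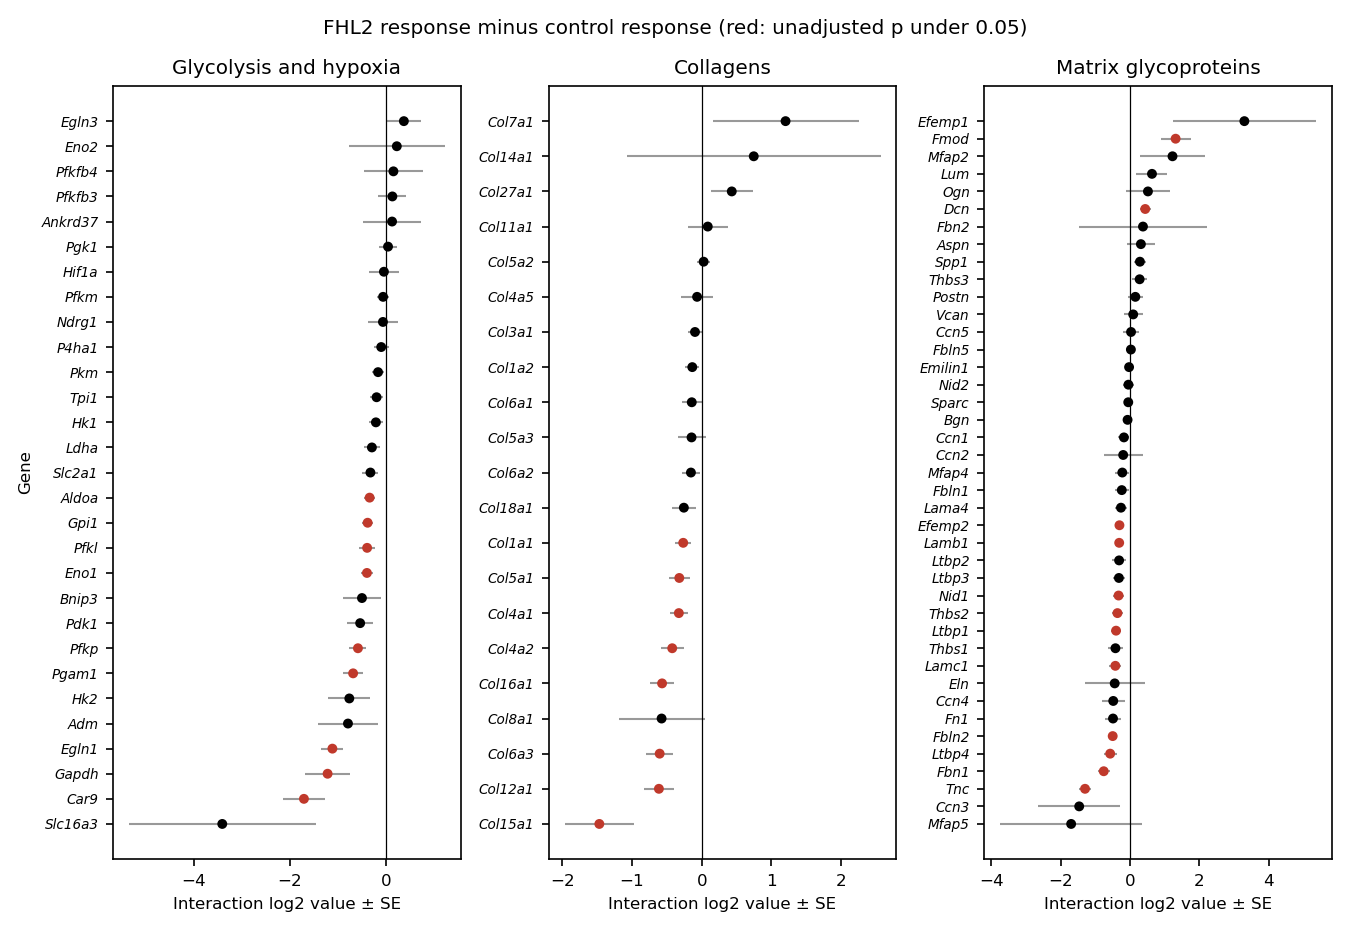
Interaction log2 value with its standard error for every gene tested of 3 lists, with an unadjusted p under 0.05 in red. The red points lie below 0 in all glycolysis and hypoxia genes (9) and collagens (8). In the matrix glycoproteins 10 lie below 0, with Tnc at -1.30, and 2 lie above.

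Complement and acute-phase genes held several positive values. C1s1, a protease of the classical complement pathway, was lower in FHL2 cells at day 0 (64.2, 64.4 and 71.5 CPM against 98.4, 99.0 and 103 CPM) and overlapped with control at day 2, with an interaction of 0.64 (adjusted p 0.476). Serpina3n, an acute-phase protease inhibitor, rose to 35.7, 57.0 and 35.7 CPM in control and to 62.8, 72.5 and 64.7 CPM in FHL2 cells, with an interaction of 0.91 (adjusted p 0.629). Of the 23 adipokine, acute-phase and renin-angiotensin genes tested, 7 were higher and 1, Agt, lower at an unadjusted p under 0.05. Ren1 is not on this list, so its negative value is not among these counts. Their median was -0.00, or 0.13 with genes that lack a count in a group set at 3 counts.

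The adipogenic regulators responded in both lines. Cebpb, the first transcription factor of the cascade, was at 22, 25.9 and 24.8 CPM in control and at 24.9, 21.1 and 20.9 CPM in FHL2 cells at day 0, and at 127, 161 and 133 CPM against 77.7, 95.5 and 119 CPM at day 2. All 3 FHL2 libraries were below the control libraries at day 2, but neither that difference (adjusted p 0.0954) nor the interaction (-0.41, adjusted p 0.756) passed. Cebpd, its early partner, was at 13.3, 18.9 and 18.9 CPM in control and at 31.0, 22.6 and 24.8 CPM in FHL2 cells at day 0. At day 2 Cebpd was at 203, 334 and 342 CPM in control and at 162, 188 and 278 CPM in FHL2 cells, with an interaction of -1.10 (SE 0.324, adjusted p 0.484).

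Cebpa, which acts later with PPARγ, had an interaction of -0.63 (adjusted p 0.747), with 22.5, 37.6 and 40.7 CPM in control and 25.9, 25.6 and 26.5 CPM in FHL2 cells at day 2. Pparg was at 9.77, 10.1 and 11.5 CPM in control and at 9.17, 9.28 and 7.69 CPM in FHL2 cells at day 0, and at 22.3, 40.3 and 18.6 CPM against 11.1, 20 and 22 CPM at day 2. The Pparg groups overlapped at day 2 and the interaction was -0.36 (adjusted p 0.918). Of the 22 adipogenic transcription factors tested 1 was higher and 2 lower at an unadjusted p under 0.05, with a median of -0.23. With the 3 libraries left out the median was -0.44.

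Genes of the lipid droplet and the mature adipocyte summed to 738 to 796 CPM over the day 0 libraries, and at day 2 to 1891, 1929 and 1828 CPM in control and 1545, 1657 and 1551 CPM in FHL2 cells. Plin1, the coat protein of the droplet, and Adipoq, the hormone adiponectin, had no count at day 0 in either line. At day 2 Plin1 was at 14.3, 18.9 and 14.1 CPM in control and at 2.64, 6.02 and 3.82 CPM in FHL2 cells, with no overlap, though the day 2 difference did not pass (adjusted p 0.0777). Adipoq was at 3.02, 2.57 and 6.06 CPM in control and at 0, 2.41 and 0 CPM in FHL2 cells. No interaction is given for either, since the day 0 level is 0 in both lines. Fabp4, the fatty acid binding protein of adipocytes, had 0.58 (adjusted p 0.914), at 19.6, 20.9 and 7.14 CPM in control and 8.32, 9.28 and 8.42 CPM in FHL2 cells at day 2. Plin4, another droplet protein, fell in FHL2 cells (-0.68, adjusted p 0.00841) and did not change detectably in control (0.37, adjusted p 0.117), with an interaction of -1.04 (SE 0.273, adjusted p 0.382). Acsl1, which activates fatty acids, had -1.15 (SE 0.306, adjusted p 0.382), at 56.5, 81.5 and 41.5 CPM in control and 26.6, 38.0 and 34.3 CPM in FHL2 cells at day 2. Of the 17 genes of this list tested 15 rose in control and 12 in FHL2 cells. At an unadjusted p under 0.05, 0 had a positive and 3 a negative interaction. The median was -0.30, between -0.41 and 0.002 over the alternatives. It takes in 4 genes without a count in at least 1 group, and was also -0.30 with such groups set at 3 counts. Dlk1, the preadipocyte marker that restrains differentiation, stayed between 5846 and 7688 CPM in all 12 libraries, with an interaction of -0.11 (adjusted p 0.914).

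Immediate early genes, the rapid targets of growth factor and cyclic AMP signals, had the lowest median of the lists with at least 10 genes tested, -0.37, and it was -0.45 to -0.30 over the alternatives. Of 20 genes tested 11 rose in control and 7 in FHL2 cells, and 0 were higher and 3 lower at an unadjusted p under 0.05: Fosl1, Nr4a1 and Jun. Nr4a1, an orphan nuclear receptor, rose to 131, 149 and 147 CPM in control and to 81.4, 84.7 and 107 CPM in FHL2 cells, with an interaction of -0.93 (SE 0.212, adjusted p 0.346). Jun was at 106, 151 and 186 CPM in control and at 97.6, 88.8 and 95.6 CPM in FHL2 cells at day 2, with an interaction of -0.63 (adjusted p 0.592). Among 25 glucocorticoid and cyclic AMP targets 0 were higher and 3 lower, with a median of -0.17 beside median responses of 3.04 in control and 2.60 in FHL2 cells. Wnt4, an extracellular signal, rose to 26.8, 47.7 and 27.3 CPM in control and to 17.7, 11.7 and 19.7 CPM in FHL2 cells, with an interaction of -2.17 (SE 0.422, adjusted p 0.162).

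Genes of mitosis and of the ribosome had mostly positive values, 25 of 32 and 35 of 40. In the 32 genes of G2 and mitosis the median was 0.32, with 3 higher and 0 lower at an unadjusted p under 0.05. Anln, the cytokinesis scaffold anillin, fell in both lines and was at 19.7, 22.5 and 15.7 CPM in control and at 40.4, 43.4 and 33.5 CPM in FHL2 cells at day 2, with an interaction of 0.94 (SE 0.221, adjusted p 0.351). In the 39 genes of S phase and DNA replication 0 were higher and 0 lower, with a median of -0.01. The 40 cytosolic ribosomal protein genes had a median of 0.24, with 9 higher and 0 lower, and a median of 0.41 without the 3 libraries. Their median ranged from 0.07 to 0.41 over the alternatives.

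The tonicity response genes, which include the known targets of NFAT5, had a median interaction of -0.01 over 21 genes tested, with 1 higher and 0 lower at an unadjusted p under 0.05. The median of this list was -0.11 without the 3 libraries. Akr1b3, aldose reductase, rose in both lines and had an interaction of -0.11 (SE 0.262, adjusted p 0.971). Slc5a3, the inositol transporter, fell in both lines (log2 -1.36 in control and -1.47 in FHL2 cells), with an interaction of -0.11 (SE 0.325, adjusted p 0.982). Nuclear genes of oxidative phosphorylation (0.03 over 37 genes) and cholesterol synthesis (0.04 over 24 genes) had 0 and 4 genes higher and none lower at an unadjusted p under 0.05. Their medians without the 3 libraries were 0.16 and 0.23, beside -0.04 over all genes.

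**Figure D5:**
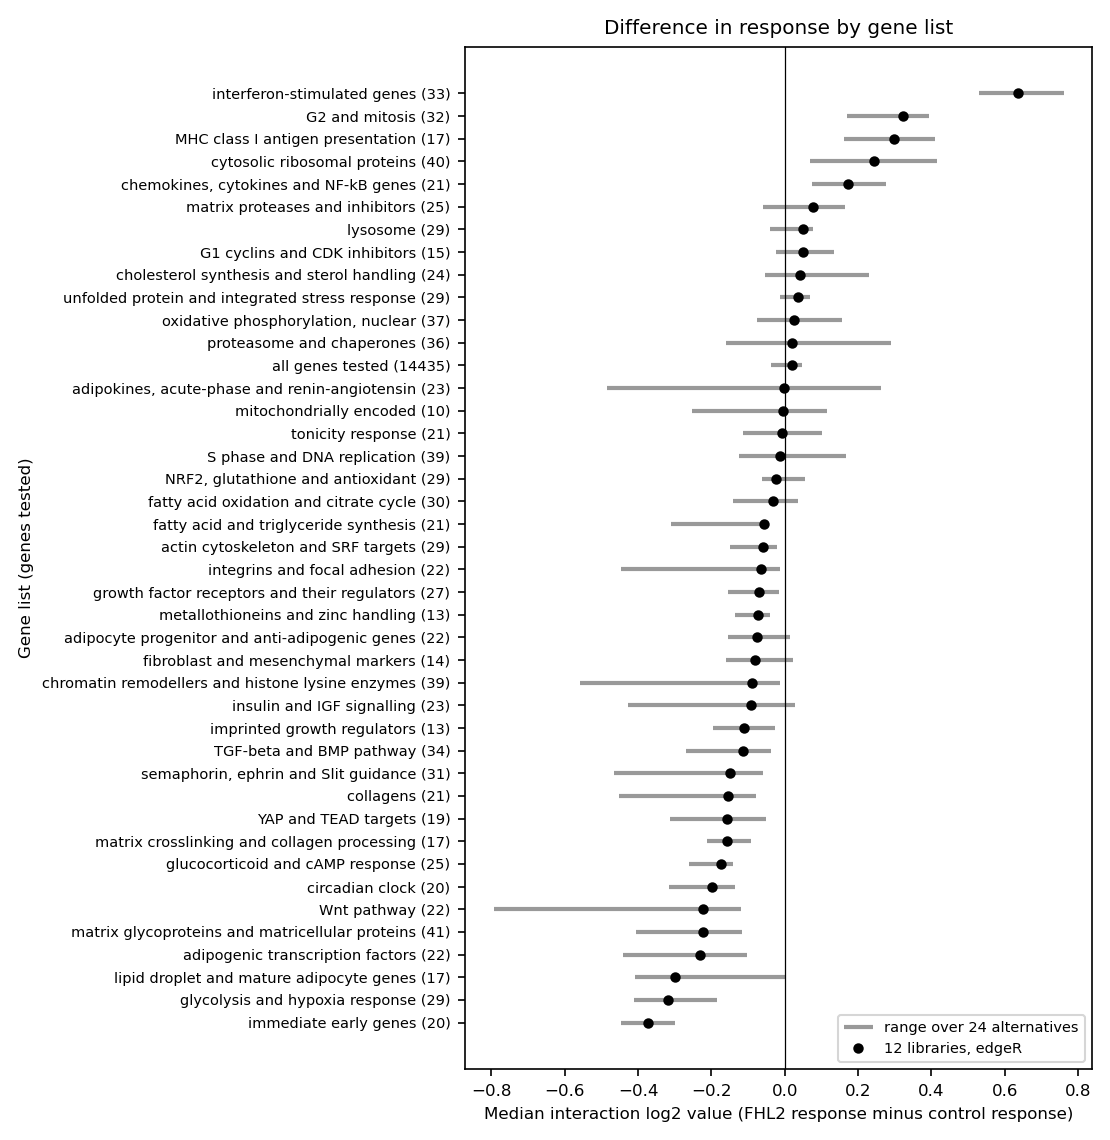
Median interaction log2 value of each gene list with at least 10 genes tested, as a point for the 12 libraries and a grey bar for its range over 24 alternative fits, with the number of genes tested in brackets. Interferon-stimulated genes are highest at 0.64 and immediate early genes lowest at -0.37, and the median over all genes tested is 0.02.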

How the data were processed

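RNA of 12 samples was sequenced as stranded polyA libraries. The authors deposited whole-number counts per Ensembl gene, with no normalization. The build GRCm39, the aligner HISAT2 (2.2.1), the counter HTSeq (0.11.0), the trimmer Trimmomatic (0.39), FastQC (0.11.9), limma and R (4.1.0) are named per the submitters' processing notes, without their settings. Symbols were found for 52013 of 55414 identifiers, and a symbol shared by several identifiers (Aldoa among those tested) stayed with the deepest one, as chosen after the data were seen.

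Counts of all 12 libraries (total 10047708 to 21872139) were fitted with edgeR 4.0.16 in R 4.3.3 (filterByExpr by group, TMM scaling, quasi-likelihood F test, 1 mean per group), with Benjamini-Hochberg adjustment over the 14435 genes kept. The standard error is the log2 value divided by the square root of F. The script was tested on simulated counts. The biological coefficient of variation was 0.121 at day 0 and 0.463 at day 2. Groups without a count were set at 3 counts where said.

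Named by rule were fixed genes of the pathway, genes that passed, and up to 5 in each direction of smallest p with a mean of at least 5 CPM. All other genes, among them the 25 of smallest p, list members and the 2 turned genes, were chosen after their values were seen. Members and lists were chosen with earlier results of these data known. The labels state no pairing by replicate number, and the main fit used none. Alternatives were other scalings, filters, DESeq2 1.42.0, limma 3.58.1, offsets for GC content and length, a replicate block, and libraries left out. Promoters are from RefSeq, build GRCm38.p6, matched by symbol, and 9935 of the symbols tested had a window. Some results are not reported here.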

Additional observations from a re-analysis of the deposited data

Results flagged for a closer look

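The response of Tnc to induction differed between the lines by a test of the difference itself, with an interaction of -1.30 on the log2 scale. The control response was 0.02 and the FHL2 response -1.28, or -0.58 and -1.85 with an offset for GC content. It is the only one of 14435 genes that passed, and it no longer passed when any one of 9 of the 12 libraries was left out.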

How the results depend on the processing

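The count of genes with a higher response in FHL2 cells (0 of those tested, with 472 at an unadjusted p under 0.05) became 1 with upper-quartile scaling, 51 with no filter, 34 with DESeq2, 1 with limma quality weights, 1 with a GC offset, 4 with a GC and length offset and 73 without the 3 gene-poorest day 2 libraries, and 0 to 5 with 1 library left out. The count of lower genes (1) became 40 with no filter, 39 with DESeq2, 5 with limma quality weights, 3 with the GC and length offset and 170 without the 3 libraries, and 0 to 2 with 1 library left out. The cause was not tested. A replicate block gave 0 and 1, with Tnc at -1.29. The numbers are not a stated pairing: 4 of 18 same-number pairs had a correlation of deviations over 0.1 (-0.137 to 0.270), and 8 of 12 libraries correlated best with their own number. Of 2398 values of the 100 genes examined under alternatives, 2276 kept direction and side of the threshold, 100 passed newly, 9 (all Tnc) no longer passed and 13 changed sign without passing. GC content and the interaction had a Spearman rho of -0.162 over 10443 genes, with class medians from 0.125 at the lowest GC to -0.0400 at the highest.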

Other observations

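In the matrix glycoprotein list 26 genes had a RefSeq promoter window. Of these, 15 (57.7%) held TGGAAA, the core bound by NFAT-type factors, on either strand. Of the tested genes with a window 19.9% held it, and of all genes with a window 23.95%. The other motifs searched were also more frequent in this list. The core of the interferon-stimulated response element was in 15.4% of its genes, against 3.71% of the tested genes with a window. TATATAA was in 7.69%, against 1.64%. Genes can have several windows, and no Tnc window held TGGAAA. These matches are counts of letters and were not tested.

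Tgm2, the matrix crosslinking enzyme transglutaminase 2, was at 4.97, 6.21 and 5.76 CPM in control and 2.32, 3.13 and 3.09 CPM in FHL2 cells at day 0. At day 2 Tgm2 was at 12.7, 15.9 and 15.5 CPM in control and at 0, 0 and 0.908 CPM in FHL2 cells, and a fitted interaction is not given because 2 of these 3 libraries have no count. Tagln, the smooth muscle actin-binding protein transgelin, fell in both lines and was at 2.11, 0.588 and 1.95 CPM in control and at 8.53, 8.43 and 6.24 CPM in FHL2 cells at day 2, with an interaction of 1.46 (SE 0.418, adjusted p 0.461). Grem1, a secreted BMP antagonist, fell in both lines, to 16.2, 12.6 and 11.5 CPM in control and to 3.61, 2.05 and 3.15 CPM in FHL2 cells. Its interaction was -1.04 (SE 0.339, adjusted p 0.590), and its FHL2 libraries were already lower at day 0. Mt2, a metallothionein induced by glucocorticoids and zinc, rose to 230, 253 and 265 CPM in control and to 142, 153 and 160 CPM in FHL2 cells, with an interaction of -0.61 (SE 0.157, adjusted p 0.382).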
